A study of Mus musculus with 4 samples.

Results

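The regions described here are stretches of coding sequence (CDS) at which peaks of 3 RNA-binding proteins lay on top of each other in mouse bone marrow cells. They were chosen by their position and their overlap. A member is a peak whose summit lies in the CDS, and in no annotated untranslated region, of a GENCODE M21 protein-coding gene, and which overlaps a peak of each of the other lists by at least 1 bp. The rule took 2091 of 19866 peaks: 713 of 7069 in the IGF2BP2 list, 696 of 2834 in the YTHDF2 list and 682 of 9963 in the YTHDC1 list. Among CDS peaks alone, members made up 22.0% of 3244 for IGF2BP2, 51.9% of 1342 for YTHDF2 and 26.4% of 2582 for YTHDC1. Over all peaks of a list, wherever they lay, 17.7%, 44.4% and 12.5% overlapped both other lists. Overlapping members were merged into 767 places in 532 genes, and 530 genes were among the 21809 protein-coding genes whose coding transcript is complete in the annotation (2.43%).

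The study precipitated RNA with IGF2BP2, YTHDF2 or YTHDC1 from cultured lin- c-Kit+ bone marrow cells, with 1 library for each protein, and sequenced 1 input library, which was not analysed here. The labels call all 4 samples LIC and give no genotype, oncogene, age or number of mice. That the cells are leukaemic is taken from the series title. All cells grew with IL3, IL6 and SCF, were crosslinked with UV light of 254 nm (3 exposures of 120 mJ per cm2) and gave libraries of 250 to 450 bp after 20 PCR cycles. Because a single library stands behind each list, no difference between proteins has a replicate check, sequencing depth is unknown, and every interval given (exact binomial, 95%) covers counting error only.

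Cells methylate some adenosines of their mRNA to N6-methyladenosine (m6A), and reader proteins bind the transcripts that carry it. YTHDF2 recruits deadenylases and promotes decay of its targets in the cytoplasm, YTHDC1 works in the nucleus, where it is known for roles in splicing and export, and IGF2BP2 binds through KH and RRM domains and is known for stabilising mRNA. The mark is placed at adenosines within the DRACH consensus, often GGAC, and is known to be dense near stop codons and in long internal exons. Stretches of GAA and GAG codons, which encode glutamate, are also known as binding sequences of SR splicing factors.

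Of the 20 places ranked highest over all lists, 16 had a purine-rich window, defined as at least 65% A or G on the coding strand within 50 nt of the summit. Of all 765 places with a transcript sequence, 341 had one (44.6%). In the 30 nt around the summit the 20 places held between 16 and 30 purines, with a median of 21. The 7 shown first were picked from these 20 for long purine runs, after their sequences were seen. Each line gives 30 nt of the coding strand around the summit of the list with the highest fold, read 5′ to 3′ from GENCODE M21 transcripts (GRCm38). Capitals mark 4 purine six-mers, which may overlap: GAAGAA with its variant GAAGAG, and GAGGAA with its variant GAGGAG. Calr encodes the chaperone calreticulin, Cdk11b a kinase, Hmgb1 and Dek chromatin proteins, Ythdc1 the reader itself, Ubtf a factor of ribosomal RNA transcription and Baz1a a chromatin remodeller subunit.
Calr, chr8:84842739-84842768, minus strand: aaGAGGAAGAAGAAgctgaggataaagagg
Cdk11b, chr4:155639861-155639890, plus strand: agGAAGAAGAGGAAGAAGAAGAGGAGGAGg
Hmgb1, chr5:149048790-149048819, minus strand: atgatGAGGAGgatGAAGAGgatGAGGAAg
Ythdc1, chr5:86817109-86817138, plus strand: atGAGGAAgtggatgaagatgcaGAGGAGg
Dek, chr13:47105596-47105625, minus strand: agGAGGAGGAGgatgacgaagacgatgatg
Ubtf, chr11:102306925-102306954, minus strand: GAGGAGGAAGAGGAAgatgatgagaacggt
Baz1a, chr12:54934796-54934825, minus strand: aaaggGAGGAActGAAGAAaatggtagagg
The 30 nt held 27 purines in Calr, 30 in Cdk11b, 26 in Hmgb1, 25 in Ythdc1, 25 in Dek, 26 in Ubtf and 26 in Baz1a. Other strong places lacked such runs. Srrm2, a splicing coactivator gene with the highest IGF2BP2 and YTHDF2 folds of all places, held 16 purines in its 30 nt. The 4 places with the lowest purine share among those with a fold of at least 10 in every list are shown next for contrast. Jund encodes an AP-1 transcription factor, Pabpn1 the nuclear poly(A)-binding protein, Eef1a1 a translation elongation factor and Rab44 a Rab GTPase.
Srrm2, chr17:23807081-23807110, plus strand: gaactgcggcacctggaggctgccctggtg
Jund, chr8:70699146-70699175, plus strand: gtggtggcttcgcgcccccgggccgcgctt
Pabpn1, chr14:54894361-54894390, plus strand: agccgccccggccccgcgcccctccgggag
Eef1a1, chr9:78479010-78479039, minus strand: aagtctggcgatgctgccattgttgatatg
Rab44, chr17:29120942-29120971, plus strand: atgcccccgtggccgcggaggctgagtcct
In a window that reaches 50 nt to either side of the summit, called the window from here on, the purine share was 84.2% in Calr, 84.2% in Cdk11b, 91.1% in Hmgb1 and 87.1% in Ythdc1. It was 57.4% in Srrm2, 47.5% in Jund, 49.5% in Pabpn1, 49.5% in Eef1a1 and 53.5% in Rab44.

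Members had a higher median fold, pileup and width than the other CDS peaks of their lists. Fold here means the enrichment over local background that the authors deposited for each peak, with no formula stated. The pileup is the height of the stacked fragments at the summit. At some places the fold lay slightly above the pileup, as for IGF2BP2 in Cep152 (fold 23.7, pileup 23). There the order of folds largely follows the signal height. The median fold was 11.7 in members and 5.38 in the other CDS peaks for IGF2BP2, 6.92 and 4.56 for YTHDF2, and 9.78 and 6.01 for YTHDC1. Median pileups were 13 and 5, 7 and 4, and 11 and 6 in the same order, and median widths 224 and 135 bp, 143.5 and 100 bp, and 182 and 126 bp. A fold of at least 10 was reached by 403 of 713 members for IGF2BP2 (56.5%, where 19.6% of all peaks of the list reached it), 177 of 696 for YTHDF2 (25.4%, against 14.0%) and 336 of 682 for YTHDC1 (49.3%, against 20.5%). The overlap rule rests on the same peak calls, so these values describe what it selected and nothing is read from them.

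The share of CDS peaks that were members went up with the pileup in each list. For IGF2BP2 it was 5.34% at pileups of 2 to 4, 16.6% at 5 to 9, 38.0% at 10 to 19 and 81.5% at 20 or more. For YTHDF2 the shares were 28.3%, 60.3%, 86.3% and 91.0%, and for YTHDC1 14.5%, 21.5%, 33.3% and 52.6%. At pileups of 20 or more, 91 of 100 YTHDF2 peaks in coding sequence had partners in both other lists, as did 52.6% of the 382 YTHDC1 peaks.

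The place ranked highest in all lists together was in Calr. Its peaks had a fold of 68.1 in IGF2BP2, 34.7 in YTHDF2 and 46.1 in YTHDC1, with pileups of 150, 64 and 121, at codon 382 of 416 in the last exon. Hsp90aa1, which encodes the inducible cytosolic HSP90, had folds of 62.4, 30.03 and 45.9 at codon 254 of 733. Both lay over runs of acidic codons. Srrm2 had 69.9, 46.1 and 39.1 at codon 46 of 2703. Ythdc1 had 45.1, 28.9 and 37.6 at codon 226 of 736, where 87.9% of the 33 residues around the summit were aspartate or glutamate. The mRNA of the nuclear reader was therefore among the strongest shared places of all 3 precipitates, its own included. Hmgb1 had 56.7, 24.8 and 41.9 at codon 194 of 215. The HMGB1 protein ends in an acidic tail, and 78.8% of the residues around this summit were acidic.

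The other places among the first 20 came from genes of varied roles. Tax1bp1, an autophagy receptor gene, had folds of 38.3 in IGF2BP2, 24.6 in YTHDF2 and 33.5 in YTHDC1. Cdk11b had 59.7, 22.8 and 40.4, and Hnrnpc, which encodes a nuclear RNA-binding protein, had 33.4, 21.9 and 33.5. Eif3a, the largest subunit of initiation factor eIF3, had 41.8, 32.6 and 29.4 at codon 950. Pabpc1, the cytoplasmic poly(A)-binding protein gene, had 43.2, 25.2 and 29.4. Ubtf appeared with a place at codon 491 (42.8, 24.6 and 28.3) and another at codon 696 (28.1, 20.0 and 29.2). Baz1a (37.2, 19.2 and 29.4), Htatsf1 (40.2, 20.1 and 26.1) and Dek (27.0, 20.8 and 33.1) completed the single genes, and the remaining places of the first 20 were in Myh9 and Nin. In 17 of these 20 places IGF2BP2 had the highest fold.

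**Figure D1:**
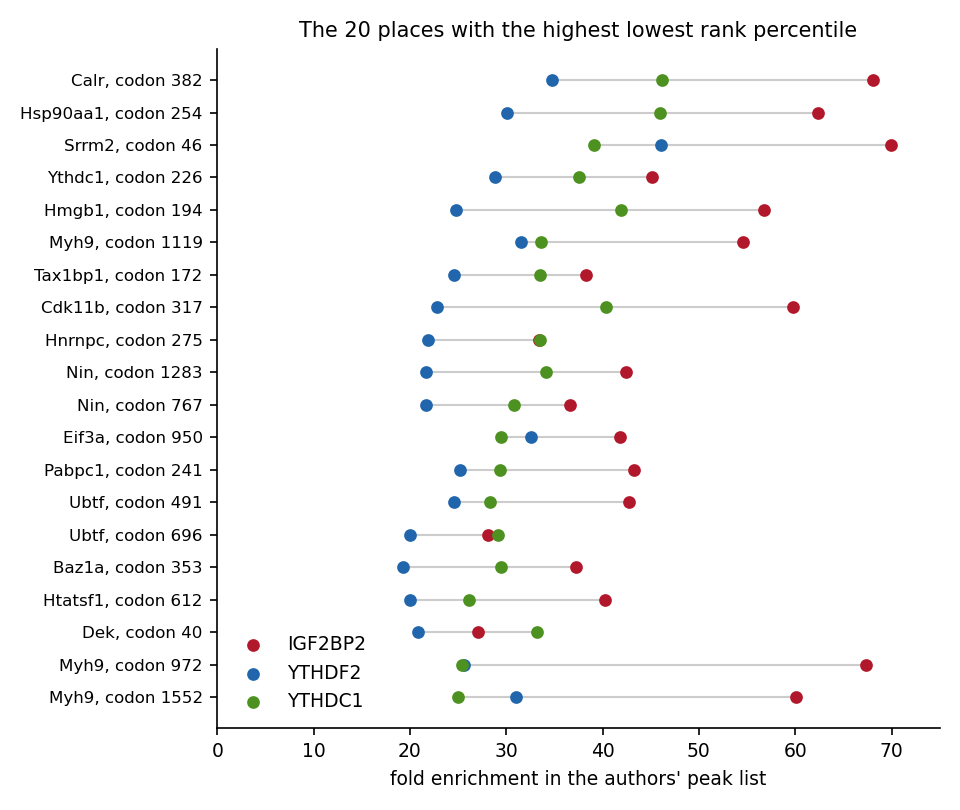
Fold enrichment (linear axis, authors' values) of the IGF2BP2, YTHDF2 and YTHDC1 peaks at the 20 places whose lowest rank percentile over the 3 lists was highest, 1 point for each list. IGF2BP2 is the rightmost point in 17 of the 20 rows, with 5 of them above 60, in Calr, Hsp90aa1, Srrm2 and Myh9.

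Over all places the folds ran from 2.94 to 69.9 in IGF2BP2 (median 11.4), 2.93 to 46.1 in YTHDF2 (median 6.91) and 2.90 to 49.8 in YTHDC1 (median 9.68). IGF2BP2 had the highest fold at 431 places, YTHDF2 at 54 and YTHDC1 at 282. YTHDF2 had the lowest at 430. The fold depends on the depth of each library, which is unknown, so the same order was also taken from rank percentiles within each list. IGF2BP2 then ranked highest at 413 places, YTHDF2 at 81 and YTHDC1 at 273. Rank percentiles do not remove depth, since they depend on the length and make-up of each list. Peaks that overlap both other lists were 17.7% of the IGF2BP2, 44.4% of the YTHDF2 and 12.5% of the YTHDC1 list. The median ratio of folds was 1.70 for IGF2BP2 over YTHDF2, 1.20 for IGF2BP2 over YTHDC1 and 0.735 for YTHDF2 over YTHDC1. The study has 1 input for all 3 lists, so the lists are not independent, and these ratios compare single libraries. A fold of at least 10 in every list was seen at 128 places and of at least 20 at 21.

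**Figure D2:**
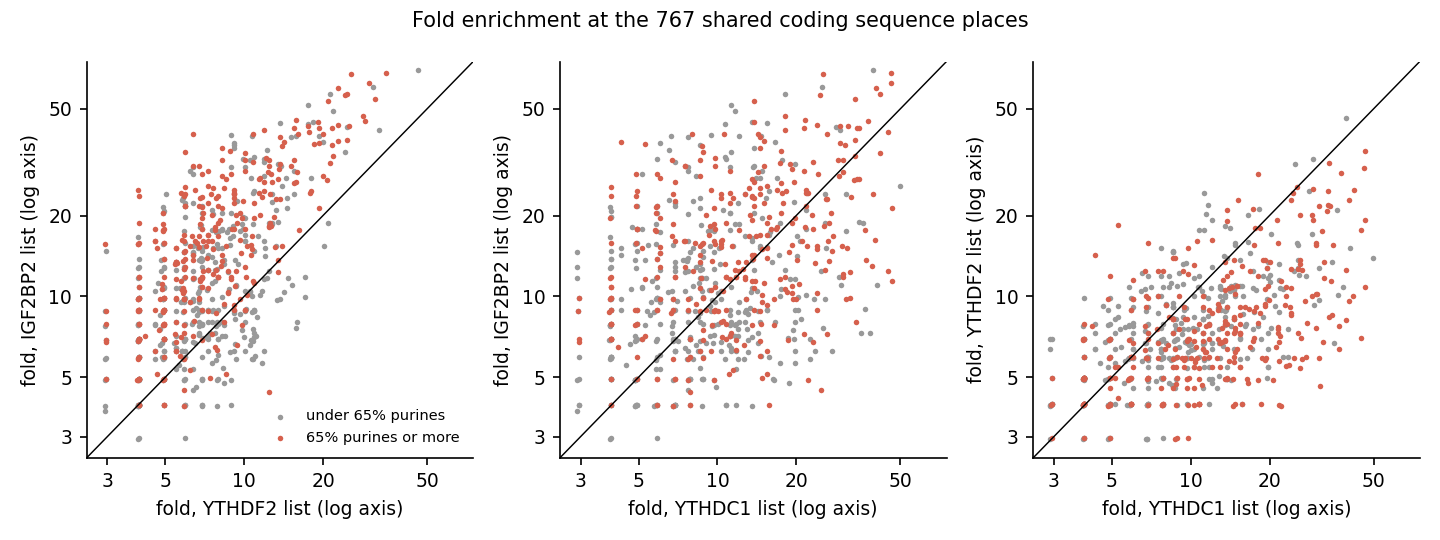
Fold of 1 list against another at each shared place (both axes logarithmic), with places at or above 65% purines in red, those below in grey and the line of equal folds in black. IGF2BP2 exceeded YTHDF2 at 616 places and YTHDC1 at 465, and YTHDF2 exceeded YTHDC1 at 240.

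The places with the most extreme ratios between lists differed in pileup as well as in fold. Ddrgk1, which encodes an adaptor of UFMylation, had a fold of 24.96 in IGF2BP2, 3.92 in YTHDF2 and 21.8 in YTHDC1 at codon 151, with pileups of 27, 3 and 28. A place of Eif3a at codon 1172 had 40.2, 6.38 and 7.98, and one in the centrosome gene Cep152 had 23.7, 3.96 and 3.93. These were the 3 highest ratios of IGF2BP2 over YTHDF2 (6.36, 6.30 and 5.98), and their summits lay 284, 139 and 233 bp apart. In Ddrgk1 only the IGF2BP2 peak was a member, and the YTHDF2 and YTHDC1 peaks overlapped it but not each other. In Cep152 the YTHDC1 peak was no member. The 3 lowest were in Rps27a (4.39, 12.4 and 7.84), Triobp (3.94, 8.90 and 5.89) and Fau (5.63, 11.7 and 19.8). Rps27a and Fau both encode a ribosomal protein fused to ubiquitin or a ubiquitin-like protein.

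IGF2BP2 exceeded YTHDC1 most at Myh9 codon 1791 (37.4 in IGF2BP2, 14.2 in YTHDF2 and 4.29 in YTHDC1), in the splicing-related gene Pnisr (37.0, 18.4 and 5.27) and in Rdx, the gene of the membrane linker radixin (25.6, 5.93 and 3.93). The Myh9 and Pnisr places and one in Skap2 (19.7, 9.89 and 3.93), an adaptor gene of haematopoietic cells, also had the 3 highest ratios of YTHDF2 over YTHDC1, at 3.31, 3.499 and 2.52. YTHDC1 exceeded IGF2BP2 most in the histone demethylase gene Kdm5c (4.46, 5.86 and 24.8), the kinase gene Mapkapk3 (7.32, 10.8 and 38.2) and the kinesin gene Kif17 (7.32, 6.70 and 35.2). It exceeded YTHDF2 most in Taf15 (15.1, 4.63 and 31.1), Plppr3 (12.4, 6.97 and 44.9) and the histone methyltransferase gene Ehmt2 (13.7, 6.38 and 36.9). The Ehmt2 and Plppr3 windows held 89.1% and 82.2% purines, and those of Kif17 and Mapkapk3 59.4% and 56.4%.

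Where YTHDF2 had the highest fold, its median lead over the next list was 1.12 times, against 1.67 times where IGF2BP2 led and 1.49 times where YTHDC1 led. The YTHDF2 fold was less than 1.1 times the next one at 26 of the 54, whereas that held for 37 of 431 places led by IGF2BP2 and 23 of 282 led by YTHDC1. Rpl7, a ribosomal protein gene, had a fold of 15.5 in IGF2BP2, 20.2 in YTHDF2 and 11.5 in YTHDC1, and Rps9 had 9.71, 13.3 and 9.56. Eef1a1 at codon 400 had 10.4, 14.2 and 13.4. Of the 18 places in ribosomal protein genes, 5 were led by YTHDF2. At G3bp1 codon 175 each list had a pileup of 3 and the folds were 3.94, 3.96 and 3.93, so the lead there is nominal. The median coding length was 1546.5 nt at places led by YTHDF2, 2806.5 nt at those led by IGF2BP2 and 2235 nt at those led by YTHDC1.

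The rule requires the peaks to overlap, and median member widths were 224, 143.5 and 182 bp. Short distances between summits are therefore in part set by the rule, and no reference distance was taken. The largest distance between the 3 summits of a place had a median of 34 bp, with quartiles of 17 and 63 bp. It was at most 10 bp at 112 places, 50 bp at 515 (67.1%, interval 63.7 to 70.5%) and 100 bp at 660. All summits fell on 1 base at 3 places, one of them Myh9 codon 1119. The widest separation was 532 bp, and among the strongest places Eif3a codon 950 stood out with 458 bp. A member of each list was present at 606 places. At the other 161, 1 or 2 lists had a peak that overlaps the place but is itself no member.

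Many members lay in purine-rich sequence, which the rule did not use. Windows with at least 65% purines on the coding strand, the purine-rich windows, made up 44.2% of IGF2BP2 members (interval 40.5 to 47.9%) and 30.4% of the other IGF2BP2 CDS peaks (28.6 to 32.2%). The shares were 42.8% of members (39.1 to 46.6%) and 16.7% of other CDS peaks (13.9 to 19.8%) for YTHDF2. For YTHDC1 they were 47.5% (43.7 to 51.3%) and 29.3% (27.3 to 31.4%). Of all 1652142 coding positions in the 531 transcripts of members, 11.4% were the centre of such a window. The members of the 3 lists are largely the same places, so these shares are not independent of each other. CDS peaks that overlapped exactly 1 other list came close to members in 2 lists. In IGF2BP2, members had 44.2% and such peaks 38.1% (34.9 to 41.5%), and in YTHDC1 members had 47.5% and such peaks 42.5% (38.6 to 46.5%), with overlapping intervals. In YTHDF2 members had 42.8% and such peaks 21.2% (17.5 to 25.4%). Peaks with no partner had 26.3% in IGF2BP2, 7.21% in YTHDF2 and 22.8% in YTHDC1.

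The transcripts of members were themselves richer in purines than other transcripts, but less so than the member windows. Averaged over members, 15.7% of the coding positions of the same transcript had such a window in each list. Over the main transcripts of all protein-coding genes it was 4.33%. The median purine share of a window was 63.4% in IGF2BP2 members, 63.4% in YTHDF2 members and 64.4% in YTHDC1 members. It was 60.4%, 57.4% and 59.4% in the other CDS peaks, and 54.5% over all coding positions of the members' transcripts. Against the CDS of the members' transcripts, where G was 27.7% and A 27.2%, the surplus was mainly in G. G averaged 35.8% of IGF2BP2 member windows and 31.9% of the windows of other CDS peaks, and A 28.7% and 29.3%. In YTHDF2, G was 35.7% in members and 31.3% in other CDS peaks, and A 28.7% and 26.1%. In YTHDC1 the difference from other CDS peaks lay in A, with 28.7% in members and 22.9% in other peaks, while G was 36.4% and 36.8%.

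The purine content was highest around the summit and lower on both sides. Within 50 nt of IGF2BP2 member summits 64.5% of bases were purines, against 56.8% in the 100 nt that begin 300 nt upstream and 57.5% in the 100 nt that end 300 nt downstream. YTHDF2 members gave 64.4%, 56.8% and 57.5%, and YTHDC1 members 65.2%, 56.9% and 57.5%. The other CDS peaks had a lower maximum, at 61.1% for IGF2BP2, 57.5% for YTHDF2 and 59.8% for YTHDC1 within 50 nt. The 51 to 100 nt downstream of member summits held more purines than the same stretch upstream, 62.8% and 60.3% for IGF2BP2, 62.6% and 60.3% for YTHDF2, and 61.6% and 60.6% for YTHDC1.

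**Figure D3:**
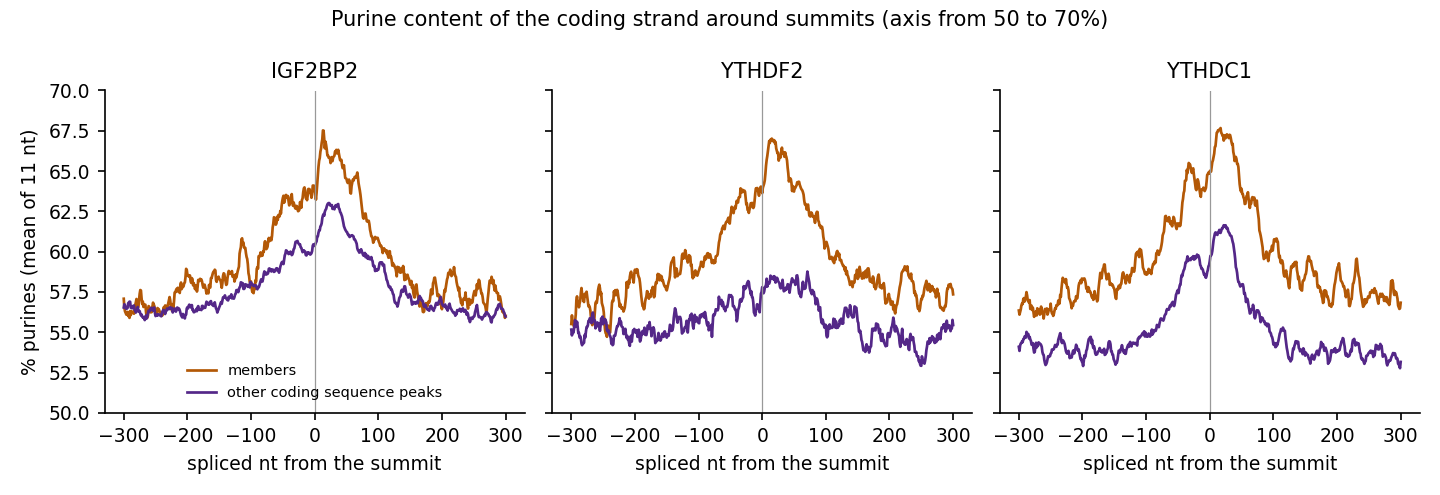
Percent of purines on the coding strand (mean of 11 nt, axis from 50 to 70%) by distance from the summit in spliced nt, for members and for other coding sequence peaks of each list. Member curves are highest near the summit in all panels, and the curve of other YTHDF2 peaks is the flattest.

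Purine-rich windows were also more frequent among strong peaks, so members and other CDS peaks were compared within bands of pileup. For IGF2BP2, members were not higher in the lower 3 bands, and the intervals of both sets overlapped in all 4. At pileups of 2 to 4 the share was 20.0% of 65 members and 21.4% of 1165 other CDS peaks, at 5 to 9 it was 29.9% and 35.2%, at 10 to 19 it was 43.6% and 44.4%, and at 20 or more 62.0% of 250 and 50.9% of 57. For YTHDF2, members were higher in every band, with 35.9% and 14.4% at 2 to 4, 38.6% and 21.2% at 5 to 9, 48.3% and 29.2% at 10 to 19, and 59.3% of 91 and 0.0% of 9 at 20 or more. The last of these rests on 9 peaks, and a count of 0 among them has an upper bound of 33.6%. For YTHDC1, members had 30.7% and other peaks 20.96% at 2 to 4, 40.6% and 28.0% at 5 to 9, 44.9% and 39.0% at 10 to 19, and 65.7% and 46.1% at 20 or more. The intervals of members and other peaks overlapped for YTHDC1 at 2 to 4 and at 10 to 19, and for YTHDF2 at 10 to 19.

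**Figure D4:**
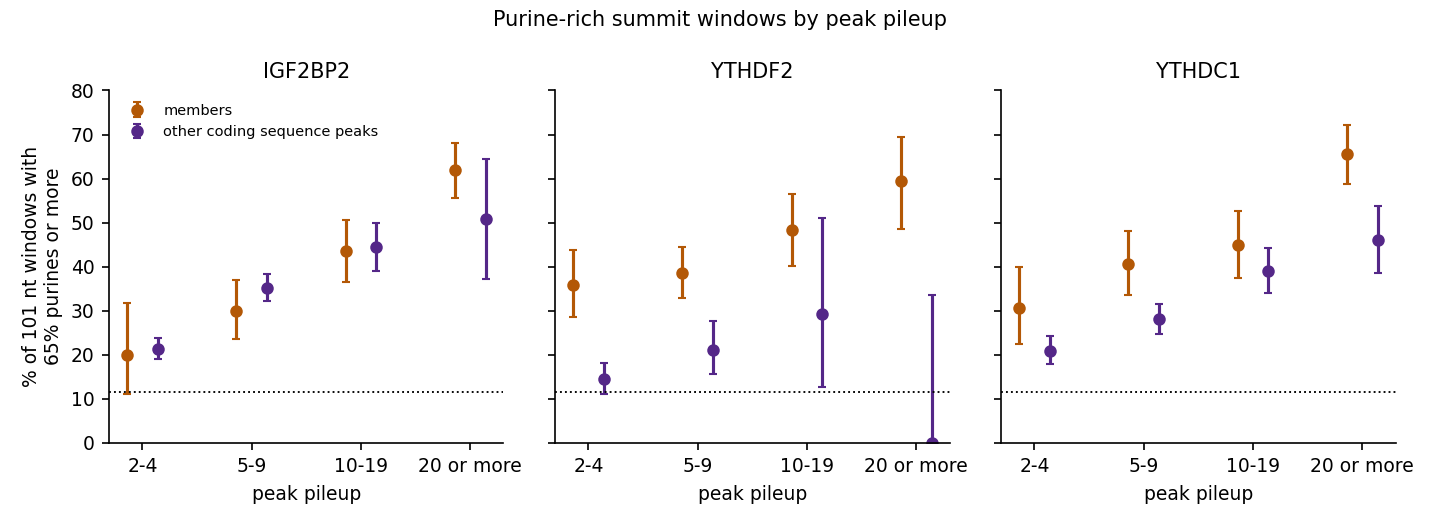
Percent of summit windows with at least 65% purines by pileup band, for members and other coding sequence peaks of each list, with exact binomial 95% intervals as bars and the share of all coding positions of the members' transcripts (11.4%) as a dotted line. In IGF2BP2 the points of both sets climb together, and in YTHDF2 and YTHDC1 members lie higher in each band.

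Across places the purine share followed the weakest of the 3 peaks. Purine-rich windows were found at 38.5% of 265 places whose lowest fold was under 5, 43.8% of 372 at 5 to 10, 55.1% of 107 at 10 to 20, and 17 of the 21 places at 20 or more (81.0%, interval 58.1 to 94.6%). They were found at 48.4% of 514 places with the summits within 50 bp and at 36.7% of 251 with summits farther apart. Places led by IGF2BP2 had 209 of 430 such windows (48.6%, interval 43.8 to 53.4%), places led by YTHDC1 126 of 281 (44.8%, 38.9 to 50.9%), and places led by YTHDF2 6 of 54 (11.1%, 4.19 to 22.6%). The last interval did not meet the others and includes the 11.4% of all coding positions. The median purine share at places led by YTHDF2 was 58.9%, against 54.5% over all coding positions of the members' transcripts.

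At least 1 of the 4 six-mers named above, searched on the coding strand, was present in 74.5% of IGF2BP2, 73.3% of YTHDF2 and 72.5% of YTHDC1 member windows. It was present in 61.5%, 48.8% and 56.6% of the windows of other CDS peaks, in 37.3% of windows at all coding positions of the members' transcripts and in 27.1% over all protein-coding genes. In the reading frame these letters often fall as glutamate codons. Glutamate made up 19.5% of the residues encoded in the 33 codons around IGF2BP2 member summits, 14.4% around other summits and 9.31% of all codons of the same transcripts. Aspartate made up 8.21%, 6.83% and 5.49%, arginine 8.25%, 7.72% and 6.37%, and lysine 7.56%, 8.31% and 6.77%. Aspartate and glutamate together averaged 27.7% around IGF2BP2, 27.8% around YTHDF2 and 28.4% around YTHDC1 member summits. Around other CDS summits they averaged 21.3%, 17.2% and 20.2%, and along the members' own transcripts 16.03% for IGF2BP2.

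GGAC, the core of the usual m6A consensus, was hardly more frequent in members than elsewhere in coding sequence. It was found in 41.9% of IGF2BP2 member windows (interval 38.3 to 45.6%), 42.7% for YTHDF2 (38.9 to 46.4%) and 42.4% for YTHDC1 (38.6 to 46.2%). Among other CDS peaks it was in 44.2%, 42.0% and 43.1%, and of windows at all coding positions of the members' transcripts 39.0% held it. The mean over the members' own transcripts was 39.5%, 39.2% and 39.2%, which lies inside the interval of each list. DRACH was present in 79.2%, 78.2% and 78.4% of member windows, in 86.3%, 85.6% and 72.9% of those of other CDS peaks, and in 88.0% at all coding positions. Both motifs contain C, which was 19.8% of IGF2BP2 member windows against 24.97% of the coding sequence of the members' transcripts. Whether this bears on the motif shares was not tested. The following lines are examples of GGAC within 15 nt of a strong shared summit, with GGAC in capitals, and not every such place is shown. Unlike the lines above, they are centred on the motif and not on the summit. Pkm encodes pyruvate kinase, Arih1 a ubiquitin ligase, Plcb2 a phospholipase C and Ccdc88c a protein of the Girdin family.
Myh9, chr15:77771939-77771968, minus strand: ctgagctccaggaGGACctggagtcggagc
Pkm, chr9:59670560-59670589, plus strand: ctgtgtcggaaaaGGACatccaGGACctga
Arih1, chr9:59486323-59486352, minus strand: gcgccatGGACtcGGACgagggctacaact
Plcb2, chr2:118717298-118717327, minus strand: ggtGGACtgctgaGGACcGGACtgaggtgg
Ccdc88c, chr12:100944951-100944980, minus strand: agagccgtgcgctGGACaaggagctggccc
Folds there were 54.5 in IGF2BP2, 31.5 in YTHDF2 and 33.7 in YTHDC1 for Myh9, 24.1, 15.5 and 25.8 for Pkm, 56.7, 21.2 and 18.2 for Arih1, 29.7, 13.6 and 19.3 for Plcb2, and 44.4, 13.7 and 15.5 for Ccdc88c. A match of letters does not show that the base is methylated, and no m6A map was used here.

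How members compared with their transcripts near stop codons depended on the reference. Within 200 nt before the stop codon lay 8.16% of IGF2BP2 members (interval 6.25 to 10.4%), 7.64% of YTHDF2 members (5.77 to 9.87%) and 8.68% of YTHDC1 members (6.67 to 11.05%). The mean share of the same transcripts' coding positions that lie there was 11.2%, 11.2% and 11.1%. It lay above the upper bound in each list, for YTHDC1 by a margin that vanishes in rounding. Pooled over all coding positions of the members' transcripts, where each transcript counts by its length, the share was 6.42%. This pooled share lay inside the intervals of IGF2BP2 and YTHDF2 and below that of YTHDC1. The rule left out summits in any annotated untranslated region of the gene. Both references, like the exon shares of coding length below, count every coding position. How much of the shortfall against the mean comes from that was not tested. With the CDS of the longest transcript instead, without this exclusion, the shares were 8.51%, 8.31% and 9.27%. Other CDS peaks had 5.397%, 8.98% and 9.50%. The last coding exon held 8.16%, 7.78% and 8.68% of members, where its share of the coding length was 12.2%, 11.9% and 12.1%. The first coding exon held 14.5%, 13.7% and 13.5% of members, where its share of the coding length was 10.2%, 9.94% and 10.1%. For YTHDC1 the first coding exon held fewer members (interval 11.05 to 16.3%) than other CDS peaks (28.4%, interval 26.4 to 30.5%), whose own transcripts also have longer first coding exons, at 16.7% of the coding length.

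Along the coding sequence members were more frequent near the start codon than near the stop codon. Of 10 equal steps of its length, the first 2 held 13.2% and 14.2% of IGF2BP2 members and the last 6.89%. For YTHDF2 these values were 13.1%, 13.3% and 6.63%, and for YTHDC1 12.1%, 14.1% and 7.50%. Other CDS peaks had a like slope, with 13.9%, 12.4% and 5.36% in IGF2BP2, 12.4%, 11.5% and 6.19% in YTHDF2, and 15.97%, 13.8% and 7.69% in YTHDC1. Exons longer than 400 nt held 23.9% of IGF2BP2 members, 23.8% of YTHDF2 and 24.3% of YTHDC1 members, against 24.2%, 23.5% and 24.2% of the coding length of the same transcripts. Long exons were thus neither favoured nor avoided by members, while they held 39.5% of other YTHDC1 CDS peaks and 16.1% of other IGF2BP2 CDS peaks. The whole peak lay inside 1 exon for 28.1% of IGF2BP2, 42.2% of YTHDF2 and 39.1% of YTHDC1 members, and for 33.1%, 49.5% and 55.7% of other CDS peaks.

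Most genes had a single place: 403 of 532 had 1, 129 had 2 or more and 22 had 4 or more. Myh9, the heavy chain of nonmuscle myosin IIA, led with 13 places between codons 53 and 1884 of 1960. Myosin heavy chains have a motor in their front part and a long coiled-coil tail behind it. The first place, at codon 53, had folds of 5.33 in IGF2BP2, 6.20 in YTHDF2 and 11.4 in YTHDC1. The other 12 began at codon 913, and IGF2BP2 had the highest fold at each of them. Its folds there ran from 16.1 to 67.4, those of YTHDF2 from 7.54 to 31.5 and those of YTHDC1 from 4.29 to 33.7. Purine-rich windows were found at 9 of the 13 places, and the median purine share was 65.3%. The strongest places, at codons 972, 1119 and 1552, held a six-mer only at codon 972, as these lines show with it in capitals.
Myh9 codon 972, chr15:77774605-77774634, minus strand: gtgaccaccgaggccaagctGAAGAAactg
Myh9 codon 1119, chr15:77771938-77771967, minus strand: tgagctccaggaggacctggagtcggagcg
Myh9 codon 1552, chr15:77767233-77767262, minus strand: gagctgcaggccacggaggatgccaagctc
They held 19, 19 and 18 purines in 30 nt, and acidic residues made up 24.2%, 24.2% and 27.3% of the residues around them. The folds at codon 972 were 67.4, 25.6 and 25.4, at codon 1119 54.5, 31.5 and 33.7, and at codon 1552 60.04, 30.998 and 24.996.

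**Figure D5:**
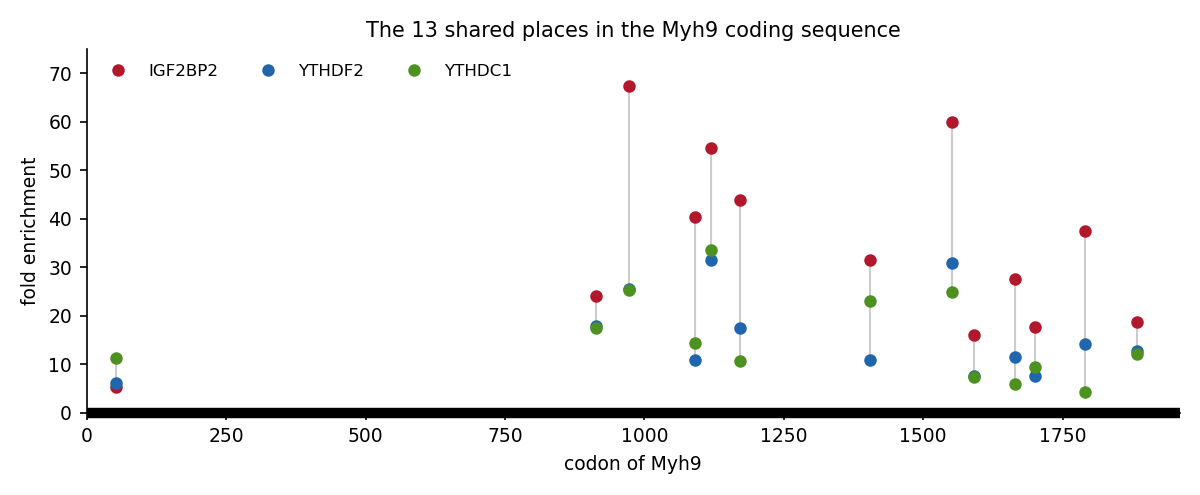
Fold (linear axis) of the IGF2BP2, YTHDF2 and YTHDC1 peaks at the 13 shared places along the 1960 codons of Myh9, drawn as a black bar. A single place at codon 53 lies in front of codon 913, and the IGF2BP2 point is the highest at the other 12.

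Eif3a and Nin had 8 places each. All 8 of Eif3a lay between codons 597 and 1298 of 1344, and 6 were rich in purines. IGF2BP2 folds there ran from 31.3 to 56.0, while YTHDF2 ran from 6.38 to 32.6 and YTHDC1 from 7.98 to 34.8. Nin, the centrosomal protein ninein, had its places between codons 171 and 1530 of 2113, with folds of 11.7 to 42.5, 4.92 to 21.7 and 3.90 to 34.1. Chd4, the remodelling ATPase of the NuRD complex, had 7 places between codons 3 and 1672 of 1922, with folds of 9.49 to 32.1, 5.75 to 13.4 and 5.60 to 20.0.

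Baz2b, Cdk11b, Pcnt and Plec followed with 6 places each. All 6 of Cdk11b lay between codons 114 and 369 of 784, and 5 were rich in purines, with a median of 72.3%. The IGF2BP2 fold was the highest at all 6 of them. Pcnt, which encodes the centrosome scaffold pericentrin, had IGF2BP2 folds of 12.7 to 39.5, against 2.97 to 19.3 in YTHDF2 and 4.91 to 13.3 in YTHDC1. In Plec, the gene of the linker plectin, 6 places lay along 4691 codons and the IGF2BP2 fold had a median of 7.24, below the 10.7 of YTHDC1. Every gene with 6 or more places had more CDS peaks than members in the IGF2BP2 list, for example 18 and 12 in Myh9 and 16 and 6 in Pcnt.

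The genes were grouped by lists chosen with earlier results of these data known, so a list's count is a description, beside the 2.43% of all protein-coding genes with a place. How abundant each mRNA was is not known from the peak lists, and its part in these counts was not tested. Counts of purine-rich places stand beside the 44.6% of all places with such a window. Nuclear acidic and nucleolar proteins had the highest share of genes with a place among the lists, 60.7% (17 of 28), and 24 of their 28 places were rich in purines. Hmgb1, Ubtf, Dek and Supt16, a subunit of the histone chaperone FACT (26.4 in IGF2BP2, 15.5 in YTHDF2 and 17.4 in YTHDC1), had the strongest. Chromatin regulators followed with 22 of 42 genes and 23 of 41 places rich in purines. Atrx, a chromatin remodeller gene, had folds of 39.2, 13.7 and 14.6, and Arid1b, a subunit of the BAF complex, had 24.1, 12.6 and 39.1.

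Genes of the cytoskeleton and of coiled-coil proteins had places in 20 of 40. Of their places 22 of 54 were rich in purines, close to the 44.6% of all places. Lrrfip1, a gene of a protein with coiled coils, had folds of 39.4, 15.8 and 14.7. Among RNA-binding proteins, 12 of 26 hnRNP genes and 12 of 30 SR protein and splicing genes had a place. Hnrnpu had 34.6, 24.3 and 11.3, Sfpq, a paraspeckle protein gene, 42.5, 19.3 and 21.4, and the SR protein gene Srsf5 31.2, 13.4 and 19.8. Translation factors had places in 10 of 25 genes. Eif5b, an initiation factor gene, had 11.3, 10.9 and 15.05 over a window of 87.1% purines. DEAD and DEAH box helicases, which remodel RNA, had places in 9 of 28 genes, led by Ddx21 at 53.5, 20.97 and 13.7.

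Chaperones had places in 11 of 27 genes, and the strongest after Calr and Hsp90aa1 were other HSP90 genes. Hsp90ab1 had folds of 24.7, 17.96 and 18.3 over pileups of 141, 83 and 135, and Hsp90b1, the form of the endoplasmic reticulum, had 23.4, 11.7 and 32.4. The windows of these 4 genes held 79.2% to 84.2% purines. Ribosomal protein genes had places in 15 of 76, and only 2 of 18 places were rich in purines. In Rpl4 the folds were 30.6, 15.1 and 9.78, over a window of 76.2% purines. Cell cycle genes had places in 7 of 38. Incenp, a chromosomal passenger gene, had 24.3, 11.4 and 22.1, and Cdk6 had 17.5, 7.99 and 9.20.

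Of 19 m6A writers, erasers and readers 3 had a place: Ythdc1, the writer scaffold Virma (18.7 in IGF2BP2, 7.91 in YTHDF2 and 15.5 in YTHDC1) and Zc3h13 (7.16, 6.71 and 9.70). The Virma window held 78.2% purines and 75.8% acidic residues. Of 40 stem and leukaemia transcription factors 2 had a place. Myb, a regulator of blood progenitors, had 46.9, 28.5 and 18.1 at codon 35 of 755, and Zeb2, with 2 places, had 13.3, 5.53 and 23.6 at the stronger one. Of 31 genes of mRNA decay 2 had a place, the nonsense-mediated decay factors Upf2 (29.4, 7.29 and 21.5) and Upf3b (14.3, 8.21 and 8.59). Glycolysis had 2 of 17, Pkm and Pfkl, with no purine-rich window in 4 places.

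The lowest shares were in zinc finger genes, with 6 of 396 (1.52%, Zfp330 at 45.4, 15.8 and 21.6), and in myeloid granule genes, with 0 of 15. Since 2.43% of all protein-coding genes had a place, neither count is read as a lack of places. Genes of nuclear oxidative phosphorylation had 1 of 21 (Atp5a1 at 18.7, 12.8 and 25.8), and histone genes 5 of 74, some with copies of the same sequence that cannot be told apart. Prmt6 and Mfsd2a, which the series title names, had no place. Prmt6 had 2 CDS peaks in IGF2BP2 and 0 in the other lists, and Mfsd2a had 1, 3 and 1. Of cell type markers, 7 of 11 for progenitors had a peak of any kind in some list. So did 4 of 6 granulocyte and monocyte, 0 of 9 lymphoid, 0 of 5 erythroid and 2 of 6 stromal markers. The progenitor count was 3 in IGF2BP2, 4 in YTHDF2 and 7 in YTHDC1. The share of all protein-coding genes with such a peak was not taken, so these counts do not check the labelled cell type. Of the markers only Myb had a place. A peak list gives no expression level, so absent peaks do not show absent genes.

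Some places cannot be assigned to 1 gene by sequence. Of 765 places with a transcript sequence, 147 shared a run of 32 nt of their window with an annotated transcript of another gene, and 65 shared at least 35 of the 70 runs, 57 of them with a pseudogene. All 70 runs of the Hmgb1, Hsp90aa1, Fau and Rps27a windows were found in the pseudogene that matched each best. Pseudogenes that shared any run numbered 72 for Hmgb1, 2 for Hsp90aa1, 1 for Fau and 14 for Rps27a. All 70 runs of G3bp1 codon 175 were likewise found in a pseudogene. At the places named, Pkm shared 61, Rpl7 56, Eef1a1 41, and Hnrnpc and Srsf5 38 runs each with a pseudogene. The values of all these genes, and of histone genes that share runs with another gene, are uncertain to that extent. Purine-rich windows made up 44.6% of all places and 44.8% of the 618 without such a match. The lists give no strand, so antisense transcription at a place cannot be told apart from the gene named.

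At the limit of the rule, the shortest overlaps that made a member were 1 bp, in Dync1h1 (chr12:110649067-110649166, IGF2BP2 fold 2.94) and Copa (chr1:172113244-172113413, 3.94). Of 4182 overlaps 9 were shorter than 10 bp. Just outside lay CDS peaks with 1 partner that missed the last list by a short gap. In IGF2BP2 these were Tln1 (gap 0 bp, fold 4.77) and Cdk11b (gap 3 bp, fold 8.82), in YTHDF2 Tln1 (0 bp, 8.38) and Nlrp3 (44 bp, 4.94), and in YTHDC1 Chd4 (1 bp, 5.60) and Def6 (14 bp, 4.81).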

How the data were processed

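The study sequenced RNA precipitated with IGF2BP2, YTHDF2 or YTHDC1, 1 library each, with 1 input library not analysed here. Per the submitters' processing notes, reads were handled with bcl2fastq 2.17, Trim Galore and HISAT2 on GRCm38. For the peak caller and its settings nothing is stated (not given in the sources used here). Each deposited peak list gives a position with no strand, a summit, and values per peak computed by the authors. These are the pileup (signal height at the summit, with no scale stated), the fold (enrichment over local background, with no formula stated), the −log10 p and −log10 q values, and an integer score that the authors deposited and that was not used here. A peak's fold depends on library depth, which is unknown, so lists were also compared by rank percentile, which depends on the length and make-up of the list.

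Summits were placed on GENCODE M21 transcripts. Sequences, codons and residues come from these transcripts, since no genome was used. Shares over peaks carry exact binomial (Clopper-Pearson) 95% intervals. These treat peaks as independent, which peaks of 1 gene are not. The comparison of all positions took 1 transcript per gene, the longest of its complete coding ones. Copies were searched as runs of 32 nt in transcripts of other genes. The search had been planned against the genome.

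Members and gene lists were chosen with earlier results of these data known. The text names the 20 places with the highest lowest rank percentile, the genes with the most places (those tied at 6 included), the 3 highest and 3 lowest ratios for each pair of proteins, up to 4 genes of each list by the lowest fold at their best place, the peaks nearest the overlap limit, and Prmt6 and Mfsd2a. Rps9, G3bp1 and the other genes given only with a printed sequence were named after their values were seen. With 1 library for each protein no test between proteins was made. Alternatives were a −log10 q or a fold of at least 5, equal list lengths, other overlap and CDS rules, 1 summit per place, other window lengths and another limit before the stop codon. Scripts used Python 3.11.15, pandas 2.3.3, numpy 2.4.6, scipy 1.17.1 and matplotlib 3.10.9 and were tested on simulated peaks.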

Additional observations from a re-analysis of the deposited data

How the results depend on the processing

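Over 16 results and 11 alternatives, 92 of 123 values stayed within their interval or within 1.5 times the reported count, and 31 moved. The values with 1 summit per place are the same for all lists and were counted once for each list. Requiring a fold of at least 5 left 474 IGF2BP2 and 452 YTHDC1 members, 501 places and 348 genes, with 73.7% of places having summits within 50 bp and purine-rich windows at 48.0% of IGF2BP2, 46.9% of YTHDF2 and 51.7% of YTHDC1 members. Equal list lengths left 344 IGF2BP2, 337 YTHDF2 and 323 YTHDC1 members, 359 places and 273 genes. There, IGF2BP2 had the highest fold at 51.8% of places, summits lay within 50 bp at 75.2%, and purine-rich shares were 57.8%, 55.5% and 62.8% in members against 39.8%, 21.7% and 41.5% in other CDS peaks. Both settings keep fewer and stronger peaks by construction. With the summit required inside the other peaks, 71.5% of places had summits within 50 bp.

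A limit of 100 nt before the stop codon gave 2.67%, 3.31% and 3.24% of members, where on average 5.58% of the coding positions of the same transcripts lie. That average too includes positions that the rule leaves out. GGAC was in 24.8%, 24.4% and 24.1% of members with a window of 51 nt (21.9% of all coding positions), and in 68.2%, 67.003% and 65.6% with 100 nt to either side of the summit (61.9%). This longer window was purine-rich in 35.7%, 32.7% and 36.0% of members and 8.01% of all coding positions. Shorter or longer windows give other shares by construction.

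Leaving out places that share a run of 32 nt with another gene, an alternative chosen after seeing the data, gave purine-rich shares of 43.6%, 42.5% and 48.2%. No paired analysis was possible because each protein has a single library. Library depth, antisense signal and replicate error are unknown, and with 1 input for all lists, shared binding and shared background cannot be told apart.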
